A study of Mus musculus with 12 samples.

Results

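The voltage-gated sodium, voltage-gated calcium and potassium channel genes were examined in the inferior vena cava (IVC) of mice with an arteriovenous fistula (AVF) and of sham-operated mice. The members were the protein-coding genes of the count table whose mouse symbols begin with Kcn followed by a letter, Scn followed by a digit, or Cacna, Cacnb or Cacng, which gave 134 of 55414 genes. They encode the pore-forming subunits of sodium, calcium and potassium channels and the auxiliary subunits that travel with them. The 12 libraries came from wild-type C57BL/6 mice of 10 weeks, 1 library per mouse, with 3 male and 3 female mice in the AVF group and 3 male and 3 female mice in the sham group. The AVF group had a needle passed from the aorta into the IVC below the renal vessels, and the sham group had every step but the puncture. The vein was taken on day 7 after the operation, in AVF mice from above the fistula opening up to the left renal vein, as bulk tissue with no sorting of cells.

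Channels of these families set the membrane potential and open or close with it. In smooth muscle of a vessel wall, L-type calcium channels let in the calcium that drives contraction, and potassium channels oppose it by holding the cell negative. In the sympathetic nerves and ganglia that lie around large vessels, sodium channels fire the action potential, N-type and P/Q-type calcium channels release transmitter, and potassium channels end the spike and limit its repetition. A vein sample that holds the surrounding tissue therefore mixes channels of neurons, glia, smooth muscle, endothelium, leukocytes and, where they are present, striated muscle. Each member was put in 1 class by the cell type it is best known from: 54 neuronal, 15 smooth muscle, 17 striated muscle, 2 glial, 7 endothelial or immune, and 39 with no class.

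Expression is given as normalized CPM, the count of a gene divided by the TMM-scaled size of its library, and a difference as the log2 fold change of AVF against sham with its standard error (SE), so that a negative value means lower in AVF. A gene was tested when at least 2 of the 12 libraries exceeded 1 CPM, and it passed when its p value from edgeR's quasi-likelihood test, adjusted over all 15912 genes tested, was under 0.05. Of the 134 members, 92 were tested, 28 had more than 12 counts over all libraries but missed this minimum, 7 had 12 counts or fewer, and 7 (Kcna10, Kcnip1, Kcnj1, Kcnj6, Kcnk12, Kcnk7 and Kcnmb3) had no counts.

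Several libraries stood apart from their group in RNA of other tissues or in ribosomal RNA. The counts of calls below are given with and without them, and so are the values of some genes. Total counts were 15177881 to 22717423 per library, and 3 counts, the least taken as detected, corresponded to 0.127 to 0.323 normalized CPM, a limit that covers counting error only. AVF male 2 and AVF female 2 held 3050 and 9030 normalized CPM of 8 hepatocyte markers, against 1.31 to 6.97 in the other libraries. Sham female 1 held 1200 normalized CPM of 8 atrial muscle markers (60.1 to 112 in the others), and sham female 3 held 1580 of 8 skeletal muscle markers (2.98 to 72.9 in the others). In AVF female 1, 46% of the counts were ribosomal RNA, against 2.39% to 12.6% elsewhere. Smooth muscle and endothelial markers were detected, all 12 and all 10 with more than 3 counts in every library. All 20 sympathetic neuron, 10 Schwann cell, 8 fibroblast, 8 macrophage and 6 white fat markers also had more than 3 counts in every library. Detection of these lists does not tell a vein from another vessel.

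In the AVF group, 10 channel genes were lower and 2 were higher than in the sham group. The lower genes included Kcnk3, Kcnj12, Kcnj11, Kcnab1, Cacna1h, Kcnd3, Kcnc4, Kcna6 and Cacng5, and the higher ones Cacna1g and Kcnk6. By class, 4 of the 10 lower genes were smooth muscle members, 3 neuronal and 3 striated muscle members. Of the 2 higher genes, Cacna1g had no class and Kcnk6 was in the endothelial or immune class. These are 10.9% of the 92 tested members lower and 2.17% higher, whereas over all tested genes 5.13% were lower and 8.63% higher. With a change of at least 2-fold asked for as well, 6 members were lower and 1 higher, against 1.4% and 3.37% of all tested genes. The log2 fold change was below 0 in 77 of 92 members (83.7%) and in 51.9% of all tested genes, and its median was -0.65 over the members and -0.01 over all genes. In bulk tissue, fewer cells of a type and less RNA per cell cannot be told apart.

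**Figure D1:**
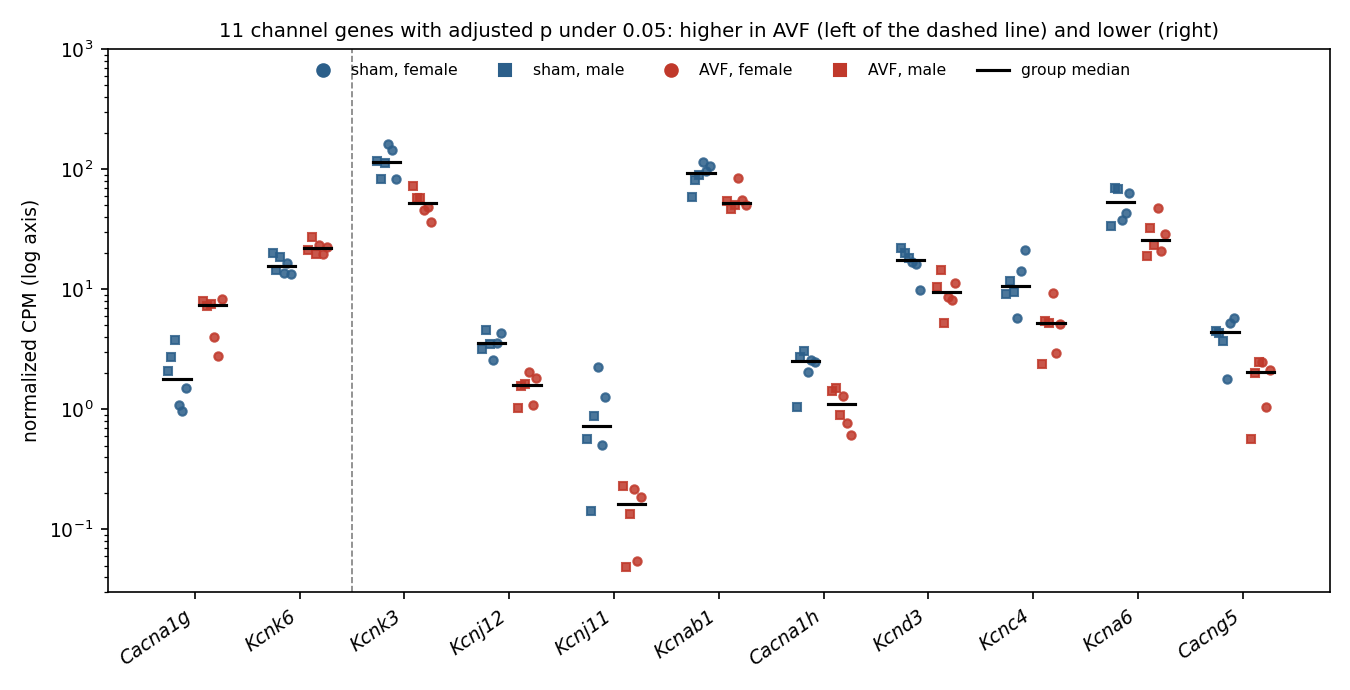
Normalized CPM (log axis) of 11 channel genes that passed the test, in each of the 6 sham (blue) and 6 AVF (red) libraries, with squares for males, circles for females and a bar at each group median. Kcnk3 and Kcnj12 have every AVF library below every sham library, and in the other 9 genes the groups overlap.

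The counts of calls depended on the libraries that stood apart. Without AVF male 2 and AVF female 2, 4 members were lower, Kcnd3, Kcnj12 and Kcnk3 among them, and 1 was higher (Cacna1g), while 1.97% and 5.74% of all genes tested in that fit were lower and higher. Without sham female 1 and sham female 3, an alternative added after the values were seen, the same 4 members were lower and 0 were higher, while 1.64% of all genes were lower and 4.55% higher, with Cacna1g at a log2 fold change of 1.44 (adjusted p = 0.0636 by edgeR's quasi-likelihood test). Without AVF female 1, 21 members were lower and 2 higher, and Kcnd3 did not pass (adjusted p = 0.0547 by edgeR's quasi-likelihood test). The additional ones included the neuronal genes Kcna2, Kcnq3, Scn8a and Scn9a, and also Kcnj10, Kcnj3 and Kcnq5 of other classes. In that fit 5.95% of all genes were lower and 10.0% higher. Kcnk3 and Kcnj12 passed the test in all 25 alternative fits tried.

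For 4 of the 10 lower genes the RefSeq promoter table (GRCm38.p6, an earlier build than that of the counts) held 1 window each, 250 bases before to 50 after the transcription start. They are shown because these genes moved in the same direction, in capitals where they hold a GC box (GGGCGG or, on the other strand, CCGCCC) or a CACCC box (CACCC or GGGTG), the letters that Sp and Krüppel-like factors are known to bind. No base was shared between a GC box and a CACCC box in these windows.
Kcnj12 (chr11:61065554-61065853, plus strand): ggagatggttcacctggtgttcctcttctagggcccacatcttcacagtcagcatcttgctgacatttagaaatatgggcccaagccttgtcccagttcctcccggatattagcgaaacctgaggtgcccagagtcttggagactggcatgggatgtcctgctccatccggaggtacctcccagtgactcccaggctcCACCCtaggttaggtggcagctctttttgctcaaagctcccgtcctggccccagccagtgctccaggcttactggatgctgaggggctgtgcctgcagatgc
Kcnd3 (chr3:105451640-105451939, plus strand): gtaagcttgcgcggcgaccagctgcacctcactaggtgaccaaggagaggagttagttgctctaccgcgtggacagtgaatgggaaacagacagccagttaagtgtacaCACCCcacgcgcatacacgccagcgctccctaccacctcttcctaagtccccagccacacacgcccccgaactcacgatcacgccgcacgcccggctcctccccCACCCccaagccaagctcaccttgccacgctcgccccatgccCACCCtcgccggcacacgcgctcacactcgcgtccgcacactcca
Kcnc4 (chr3:107458849-107459148, minus strand): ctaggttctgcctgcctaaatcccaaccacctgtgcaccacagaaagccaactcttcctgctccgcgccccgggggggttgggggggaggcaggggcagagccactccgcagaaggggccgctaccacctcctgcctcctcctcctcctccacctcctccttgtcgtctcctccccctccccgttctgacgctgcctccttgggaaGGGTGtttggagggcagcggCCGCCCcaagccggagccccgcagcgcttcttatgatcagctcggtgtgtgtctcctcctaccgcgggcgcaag
Kcna6 (chr6:126740625-126740924, minus strand): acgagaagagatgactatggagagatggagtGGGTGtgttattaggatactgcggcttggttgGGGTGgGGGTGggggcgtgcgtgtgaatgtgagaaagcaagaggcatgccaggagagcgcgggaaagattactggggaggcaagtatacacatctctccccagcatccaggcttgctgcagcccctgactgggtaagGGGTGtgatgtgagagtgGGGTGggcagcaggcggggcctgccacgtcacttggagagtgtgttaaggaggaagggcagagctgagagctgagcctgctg
Kcna6 held 5 CACCC boxes, all as GGGTG, and Kcnd3 held 3, all as CACCC. Kcnj12 and Kcnc4 each held 1, and the window of Kcnc4 was the one of these 4 with a GC box. A CACCC box lies in 57.5% of the 32851 windows of the table and a GC box in 35.7%. Of the 134 windows of the 98 members that the table lists, 75.4% held a CACCC box and 44.8% a GC box. Of the 9 windows of all listed members lower in AVF, 77.8% held a CACCC box and 33.3% a GC box. These matches are a description of letters and not of sites in use.

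Before any comparison, the channel genes of the sham vein were led by Scn7a, which encodes the sodium-sensing channel of glia and other cells, at a mean of 46.9 normalized CPM per kb of exons. Kcne4, an auxiliary subunit that damps potassium channels, followed at 20.1 per kb, and Kcnk3, an acid-sensitive tandem-pore channel that carries background potassium current, at 12.6. Next were the potassium channel pores Kcna1 (11.0 per kb) and Kcna2 (10.3), which are known from axons. Also among the 8 highest were Kcna6, another axonal pore, at 8.85 per kb, and Kcnj8, the pore of the vascular ATP-sensitive channel, at 8.48. The order among neighbours is loose, since the ranges over libraries of Kcna1, Kcna2, Kcna6 and Kcnj8 overlap. Scn7a alone made up 15.7% to 20.6% of the members' summed normalized CPM in sham libraries and 18.5% to 28.1% in AVF libraries. Its level of 319 normalized CPM in the median sham library (287 to 435) and 323 in the median AVF library (244 to 358) had a log2 fold change of -0.14 (SE 0.13), which did not pass the test.

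**Figure D2:**
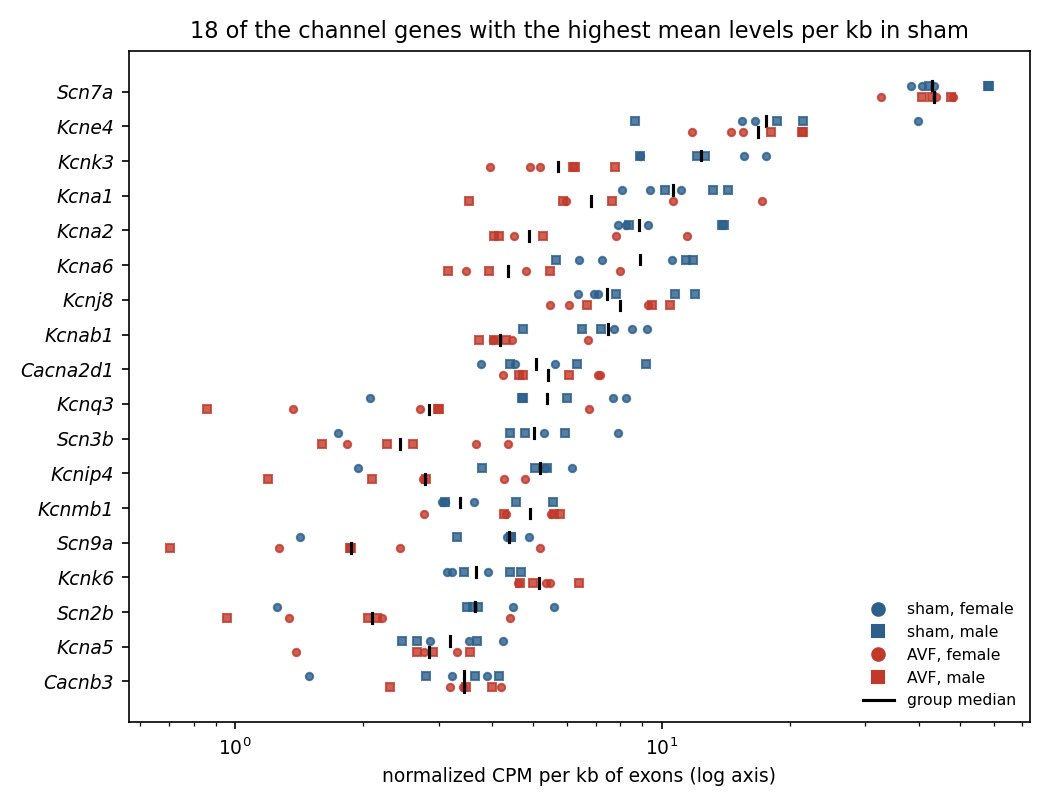
Normalized CPM per kb of exons (log axis) of 18 of the channel genes with the highest mean levels in sham, in each sham (blue) and AVF (red) library, with squares for males, circles for females and a bar at each group median. Scn7a has the highest median in both groups, and Kcnk3 is the gene shown with every AVF library below every sham library.

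The calcium channel pores split between the T-type genes. Cacna1g, the pore of a low-voltage-activated T-type channel (ENSMUSG00000020866, GRCm39 chromosome 11, 94299217 to 94365230), had a lowest, median and highest level of 2.79, 7.40 and 8.39 normalized CPM in AVF and of 0.974, 1.79 and 3.81 in sham. AVF female 1 (3.99) and AVF female 2 (2.79) were the low libraries of the AVF group, and only AVF female 2 reached down into the sham range. Its mean was 6.33 ± 2.34 (SD, n = 6) in AVF and 2.03 ± 1.09 (SD, n = 6) in sham, a log2 fold change of 1.64 (SE 0.37, adjusted p = 0.0152 by edgeR's quasi-likelihood test). This was the largest rise among the tested members.

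Cacna1h, the other T-type pore with more than a trace of counts (ENSMUSG00000024112, chromosome 17, 25593259 to 25652764), went the other way. It lay between 0.609 and 1.51 normalized CPM in AVF (median 1.10) and between 1.04 and 3.04 in sham (median 2.53). Sham male 1 was the low sham library at 1.04 and the only one within the AVF range. The log2 fold change was -1.10 (SE 0.30, adjusted p = 0.0326 by edgeR's quasi-likelihood test), and it did not pass in 12 of 25 alternative fits, with adjusted p values from 0.0062 to 0.0915. Per kb of exons, the mean level of Cacna1g was 0.196 in sham and 0.612 in AVF, and that of Cacna1h 0.211 and 0.099, so the T-type pores stood at like levels in sham and at unlike levels in AVF. Cacna1i, the remaining T-type gene, had 19 counts over all 12 libraries.

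The L-type pore Cacna1c, the main entry for calcium in vascular smooth muscle, was at 28.5 to 58.1 normalized CPM in AVF (median 38.5) and 26.0 to 55.9 in sham (median 41.7). Its log2 fold change was -0.01 (SE 0.19, adjusted p = 0.973), and the groups covered the same range. The other L-type pore Cacna1d was at 2.29 to 8.51 in AVF and 1.67 to 3.68 in sham, with a log2 fold change of 0.85 that did not pass (SE 0.31, adjusted p = 0.0868 by edgeR's quasi-likelihood test). The neuronal pores Cacna1a, Cacna1b and Cacna1e had log2 fold changes of -0.06, -0.80 and -0.79, none past the test. Among the auxiliary subunits, Cacna2d1, which carries the pore to the membrane, was at a median of 119 in AVF and 112 in sham (log2 fold change 0.00, SE 0.21). The beta subunits Cacnb2 (-0.57, SE 0.29) and Cacnb3 (0.10, SE 0.22), which bind the pore from inside the cell, did not pass either.

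Of the gamma subunits, Cacng5 (chromosome 11, 107765431 to 107811030), a member known as a partner of glutamate receptors, was at 0.571 to 2.49 normalized CPM in AVF (median 2.05) and 1.77 to 5.81 in sham (median 4.39). Sham female 1 was the low sham library at 1.77, and the other 5 sham libraries lay above every AVF library. The log2 fold change was -1.24 (SE 0.36, adjusted p = 0.0389 by edgeR's quasi-likelihood test), and it passed in 12 of 25 alternative fits. Cacng2 and Cacng3, of the same family, had log2 fold changes of -1.32 (SE 0.67) and -1.15 (SE 0.47) that did not pass. The wide errors go with low and uneven levels, 0.0571 to 3.56 normalized CPM for Cacng2 in AVF and 1.15 to 6.94 in sham.

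All 24 tested voltage-gated potassium channel pores (Kv alpha genes) had a log2 fold change below 0, with a median of -0.86, and 4 of them passed as lower. Over all tested genes the share below 0 was the 51.9% given above. Every AVF library lay below every sham library in 3 tested members, Kcnj12 and Kcnk3 among them, and in 1.51% of all tested genes. The reverse, every AVF library above every sham library, held for 0 members and for 4.55% of all tested genes.

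Kcnd3 (chromosome 3, 105359284 to 105581318), which carries the transient outward current of heart and neurons, was at a median of 9.57 normalized CPM in AVF (5.25 to 14.4) and 17.5 in sham (9.92 to 22.3). The low sham library was sham female 3, the one with skeletal muscle RNA, and it alone reached into the AVF range. The log2 fold change was -0.83 (SE 0.23, adjusted p = 0.0341). Kcnc4 (chromosome 3, 107345603 to 107367781), a fast-gating pore of neurons, was at 2.40 to 9.27 in AVF (median 5.20) and 5.74 to 21.3 in sham (median 10.6), with a log2 fold change of -1.25 (SE 0.35, adjusted p = 0.0343). Here AVF female 1 was the high AVF library and sham female 1 the low sham library. Kcna6 (chromosome 6, 126685292 to 126717644) was at 18.8 to 47.6 in AVF (median 26.0) and 33.6 to 70.5 in sham (median 53.1), with a log2 fold change of -0.88 (SE 0.25, adjusted p = 0.0369). Again AVF female 1, at 47.6, was the AVF library that overlapped the sham range. These calls were not stable, since Kcnd3 did not pass in 7, Kcnc4 in 11 and Kcna6 in 10 of 25 alternative fits, with adjusted p values up to 0.0817, 0.0952 and 0.0879.

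Its close relatives Kcna1 and Kcna2 did not pass. Kcna2 was at 54.6 to 155 normalized CPM in AVF (median 65.9) and 107 to 189 in sham (median 119), and AVF female 1 held the 155. Its log2 fold change was -0.73 (SE 0.27, adjusted p = 0.0867), and without AVF female 1 it was -0.97 (adjusted p = 0.0151 by edgeR's quasi-likelihood test). Kcna1 was at a median of 32.5 in AVF (16.9 to 82.1) and 50.8 in sham (38.5 to 68.2), with a log2 fold change of -0.39 (SE 0.31). The M-current pore Kcnq3, which restrains repetitive firing in sympathetic neurons, had a log2 fold change of -0.93 (SE 0.44) that did not pass. It ranged from 12.6 normalized CPM in AVF male 1 to 99.3 in AVF female 1 and so covered the sham median of 79.0. Of the pores that form no channel on their own, 5 of 10 were tested and none passed.

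The inward rectifier Kcnj12 (ENSMUSG00000042529, chromosome 11, 60912944 to 60964099), which holds the resting potential of muscle cells, was at 1.03, 1.59 and 2.05 normalized CPM in AVF and 2.56, 3.55 and 4.58 in sham. The groups did not overlap, with a log2 fold change of -1.25 (SE 0.22, adjusted p = 0.00363 by edgeR's quasi-likelihood test). Kcnj11 (chromosome 7, 45743377 to 45750188), the pore of the ATP-sensitive channel of pancreas and striated muscle, had the largest fall but few counts, 15 over the 6 AVF libraries and 117 over the 6 sham libraries. It was at 0.0486 to 0.229 normalized CPM in AVF, or 1 to 4 counts per library, and 0.143 to 2.24 in sham, or 3 to 43 counts. The ratio of the group rates was 0.152 (95% exact binomial interval 0.0824 to 0.261, counting error only), and the fitted log2 fold change was -2.68 (SE 0.63, adjusted p = 0.0179). Sham female 1 and sham female 3, the libraries with striated muscle RNA, held the highest levels, 2.24 and 1.26, and without both the log2 fold change was -1.84 (adjusted p = 0.0902 by edgeR's quasi-likelihood test). Without AVF male 2 and AVF female 2 it was -2.27 (adjusted p = 0.0705 by the same test). Kcnj11 did not pass in 3 of 25 alternative fits, these among them.

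Kcnj8, the ATP-sensitive pore that vessels use, did not pass. It was at 20.6 to 39.5 normalized CPM in AVF (median 30.1) and 23.9 to 45.1 in sham (median 28.1). Its log2 fold change was -0.10 (SE 0.20, adjusted p = 0.778). Kcnj2, the inward rectifier of endothelium, was at a median of 11.3 in AVF and 10.0 in sham (log2 fold change 0.33, SE 0.26). Kcnj10, the rectifier of glia, was at 4.69 to 13.6 in AVF (median 7.59) and 6.16 to 23.3 in sham (median 18.4), with a log2 fold change of -1.02 that did not pass (SE 0.34, adjusted p = 0.0647). Kcnj3, a pore opened by G proteins in atrium and neurons, was at 0.514 to 9.05 in AVF and 4.11 to 11.9 in sham (log2 fold change -1.12, SE 0.55, adjusted p = 0.183). Both its highest AVF library, AVF female 1, and its highest sham library, sham female 1, are among those that stood apart.

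Of the tandem-pore potassium channels, which carry background current, Kcnk3 fell and Kcnk6 rose. Kcnk3 (ENSMUSG00000049265, chromosome 5, 30745243 to 30783689) was at 36.7, 52.9 and 72.0 normalized CPM in AVF and 82.6, 115 and 163 in sham. Its means were 53.0 ± 12.3 (SD, n = 6) and 117 ± 32.4 (SD, n = 6), with a log2 fold change of -1.14 (SE 0.20, adjusted p = 0.00336 by edgeR's quasi-likelihood test). This was the lowest adjusted p value of any member, and the groups did not overlap. Brown fat marker sums were also higher in the sham libraries with the most Kcnk3. They were 1930, 1320 and 1020 normalized CPM in sham female 1, sham female 2 and sham male 1, where Kcnk3 was at 163, 144 and 117, and 131, 243 and 615 in sham male 2, sham male 3 and sham female 3, where it was at 82.6, 112 and 82.6. In AVF the marker sums were 53.7 to 358, and their part in the level of Kcnk3 was not tested. Kcnk6 (chromosome 7, 28921346 to 28932035), a tandem-pore gene known from endothelium and leukocytes, was at 19.6 to 27.1 in AVF (median 22.0) and 13.3 to 19.9 in sham (median 15.6). Sham male 1 at 19.9 was the sham library that overlapped the AVF range, and the log2 fold change was 0.46 (SE 0.12, adjusted p = 0.0280). It did not pass in 8 of 25 alternative fits, with adjusted p values from 0.00491 to 0.114. Macrophage markers moved the same way, 6 of 8 higher in AVF, with sums of 1170 to 1810 normalized CPM in AVF and 600 to 995 in sham. Of 10 endothelial markers 1 was higher and 0 lower, with sums of 2240 to 2870 in AVF and 1880 to 3150 in sham. Of 8 lymphocyte markers 0 were higher and 0 lower. The part of these cell types in the rise of Kcnk6 was not tested.

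Neither gene of the large-conductance calcium-activated (BK) channel of smooth muscle passed. Kcnma1, the BK pore, was at 23.4 to 66.8 normalized CPM in AVF (median 44.2) and 24.4 to 52.3 in sham (median 43.3), with a log2 fold change of 0.11 (SE 0.26). Kcnmb1, the beta subunit that makes BK sensitive to calcium in smooth muscle, was at 12.3 to 25.7 in AVF (median 21.8) and 13.6 to 24.7 in sham (median 15), with a log2 fold change of 0.30 (SE 0.20, adjusted p = 0.335). Kcnt1, a sodium-activated pore of neurons, was at 0.712 to 4.42 in AVF and 3.34 to 9.44 in sham, and its log2 fold change of -1.31 did not pass (SE 0.44, adjusted p = 0.0646 by edgeR's quasi-likelihood test).

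Among the cytosolic and membrane partners of potassium channels, Kcnab1 was lower. Kcnab1 (ENSMUSG00000027827, chromosome 3, 64856617 to 65285647), a beta subunit that speeds inactivation, was at 46.7, 52.3 and 84.1 normalized CPM in AVF and 59.3, 93.4 and 116 in sham. AVF female 1, at 84.1, lay far above the other 5 AVF libraries, which spanned 46.7 to 55.7. The log2 fold change was -0.69 (SE 0.17, adjusted p = 0.0226 by edgeR's quasi-likelihood test), and -0.81 (adjusted p = 0.00485) without AVF female 1. It was -0.63 (adjusted p = 0.0770) without AVF male 2 and AVF female 2, and -0.50 (adjusted p = 0.104) without sham female 1 and sham female 3, and did not pass in these 2 of the 25 alternative fits. Kcne4 was at 31.3 to 56.8 in AVF and 23.0 to 106 in sham, with a log2 fold change of -0.23 (SE 0.29).

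Of the sodium channel pores, 7 of 10 were tested and none passed. Scn9a and Scn3a, pores of peripheral neurons, had log2 fold changes of -0.79 (SE 0.41) and -0.40 (SE 0.24). Scn9a was at 8.91 to 65.6 normalized CPM in AVF (median 23.6) and 18.0 to 62.0 in sham (median 55.7), with AVF female 1 the highest AVF library and sham female 1 the lowest sham library. The beta subunit Scn3b was at 11.5 to 31.2 in AVF and 12.5 to 56.5 in sham (log2 fold change -0.88, SE 0.32, adjusted p = 0.0843).

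Parted by class, the neuronal members were shifted further down than the smooth muscle members, though few of either passed the test. In the neuronal class, 39 of 54 members were tested, 37 of 39 had a log2 fold change below 0, and the median was -0.82. In it 3 passed as lower (Kcnc4, Kcna6 and Cacng5), 0 as higher, and 13 had an unadjusted p under 0.05, a share of 33.3% that is near the 31.6% of all tested genes. In the smooth muscle class all 15 members were tested, 11 had a log2 fold change below 0 with a median of -0.23, and 4 passed as lower, Kcnk3, Kcnab1 and Cacna1h among them. The T-type pore Cacna1g, which passed as higher, had no class and is not counted there. In the striated muscle class 9 of 17 were tested, 8 were below 0 with a median of -0.83, and 3 passed as lower (Kcnj12, Kcnj11 and Kcnd3). The class names where a gene is best known. Among sham libraries, Kcnj12 and Kcnd3 were not highest in those with striated muscle RNA. The median over all tested genes was -0.01, and no test between classes was made.

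**Figure D3:**
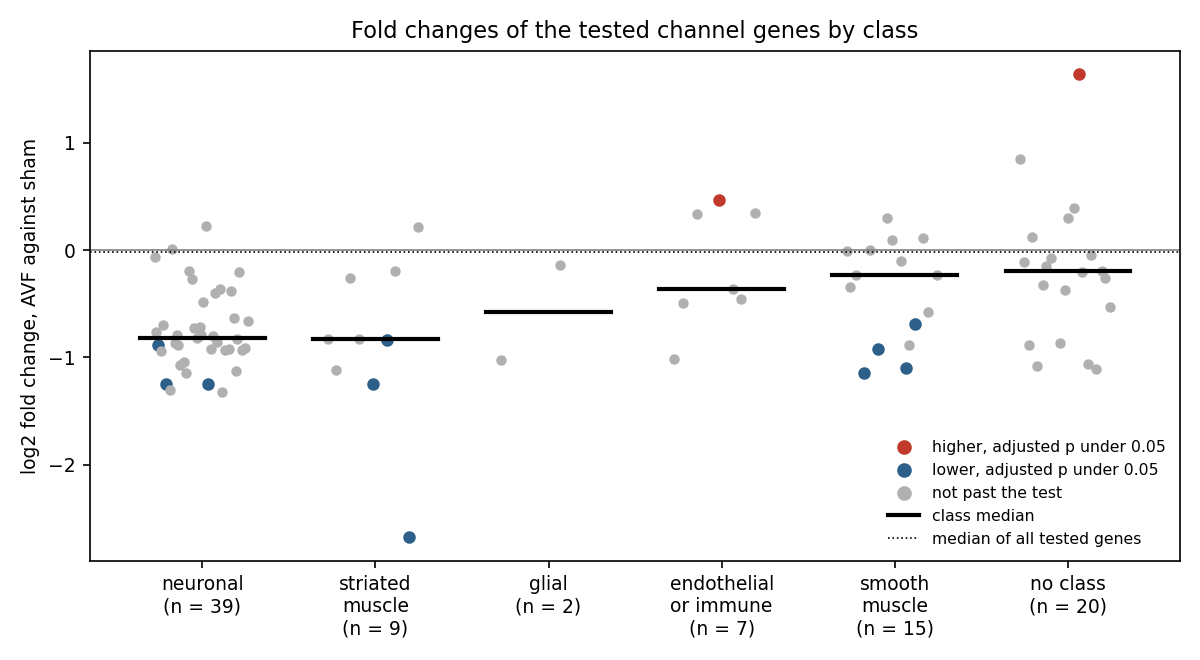
Log2 fold change of AVF against sham for the 92 tested channel genes by class, with a bar at each class median, red and blue points for genes that passed the test as higher and lower, grey points for the others, and a dotted line at the median of all tested genes. The neuronal median is -0.82 and the smooth muscle median -0.23, and the smooth muscle class has 4 genes that passed, all lower. Cacna1g, the T-type pore that passed as higher, is among the genes with no class.

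**Figure D4:**
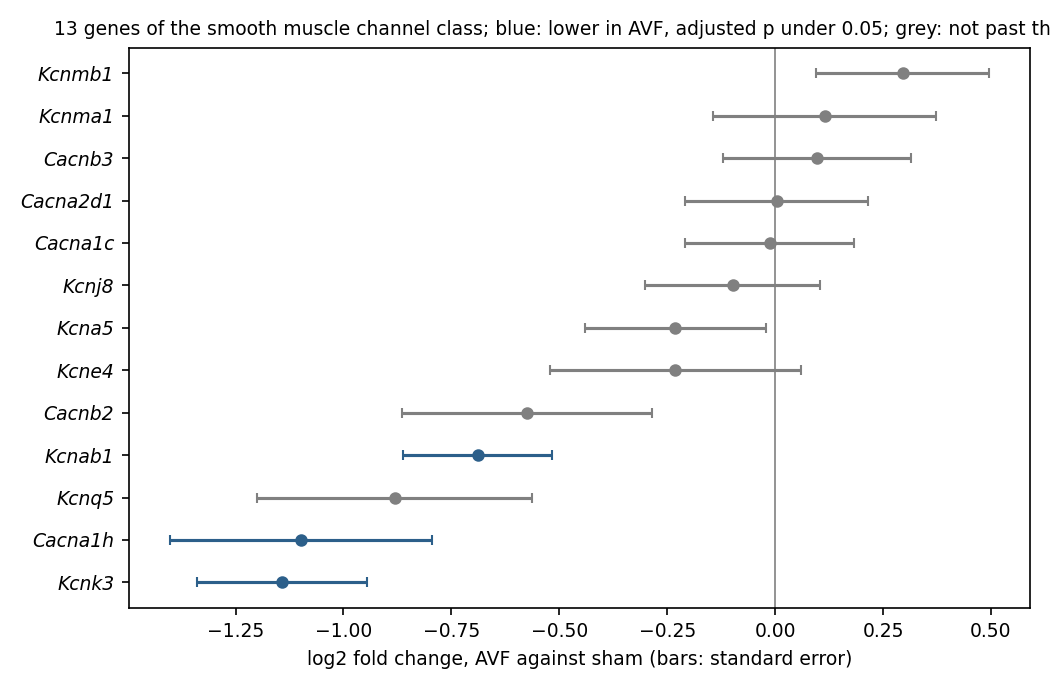
Log2 fold change of AVF against sham (bars show 1 SE) for 13 of the 15 channel genes of the smooth muscle class, blue for those lower in AVF with an adjusted p under 0.05. Kcnk3, Cacna1h and Kcnab1 lie between -1.14 and -0.69, and Cacna1c, Cacna2d1, Cacnb3, Kcnma1 and Kcnmb1 lie between -0.01 and 0.30.

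Within the smooth muscle class, the genes of the L-type and BK channels and of the vascular ATP-sensitive channel lay between -0.10 and 0.30 on the log2 scale, apart from Cacnb2 (-0.57). Kcnq5, a voltage-gated pore of vessels, was at a median of 8.18 normalized CPM in AVF and 17.3 in sham (log2 fold change -0.88, SE 0.32, adjusted p = 0.0813 by edgeR's quasi-likelihood test). Kcna5, another such pore, was at 3.98 to 10.2 in AVF and 7.06 to 12.1 in sham (log2 fold change -0.23, SE 0.21). The summed level of the class was 391 to 608 normalized CPM in AVF (median 494) and 549 to 752 in sham (median 645). Its members with high levels did not move alike. Kcnk3 had medians of 115 in sham and 52.9 in AVF, Kcnab1 of 93.4 and 52.3, and Cacna2d1 of 112 and 119. As given above, brown fat marker sums were higher in the sham libraries with the most Kcnk3. Their part in the summed level was not tested. Smooth muscle markers did not fall beside the summed level. Of 12, 1 was higher in AVF (Actg2) and 0 lower, with sums of 3260 to 6670 in AVF and 3690 to 6490 in sham and a median log2 fold change of 0.07, and their part in the class was not tested.

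The neuronal class and the neuron markers were highest and lowest in the same libraries of each group. Its summed level was 218, 366 and 340 normalized CPM in AVF male 1, 2 and 3 and 732, 264 and 451 in AVF female 1, 2 and 3. In sham it was 534, 781 and 720 in males and 384, 679 and 795 in females. The AVF median of 353 was 50.5% of the sham median of 699, but the groups overlapped through AVF female 1, the highest AVF library, and sham female 1, the lowest sham library. The 20 sympathetic neuron markers had the same extremes, from 357 in AVF male 1 to 2060 in AVF female 1 among AVF libraries, and from 844 in sham female 1 to 3410 in sham female 3 among sham libraries. All 20 were below 0, with a median log2 fold change of -1.09, and 2 passed as lower (Gata3 and Elavl4). Slc6a2, the noradrenaline transporter and the most abundant of them, was at a median of 235 in AVF and 507 in sham. The 10 Schwann cell markers were also all below 0, with a median of -0.64 and 1 lower (Cdh19). Whether these markers account for the level of the neuronal channels was not tested.

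**Figure D5:**
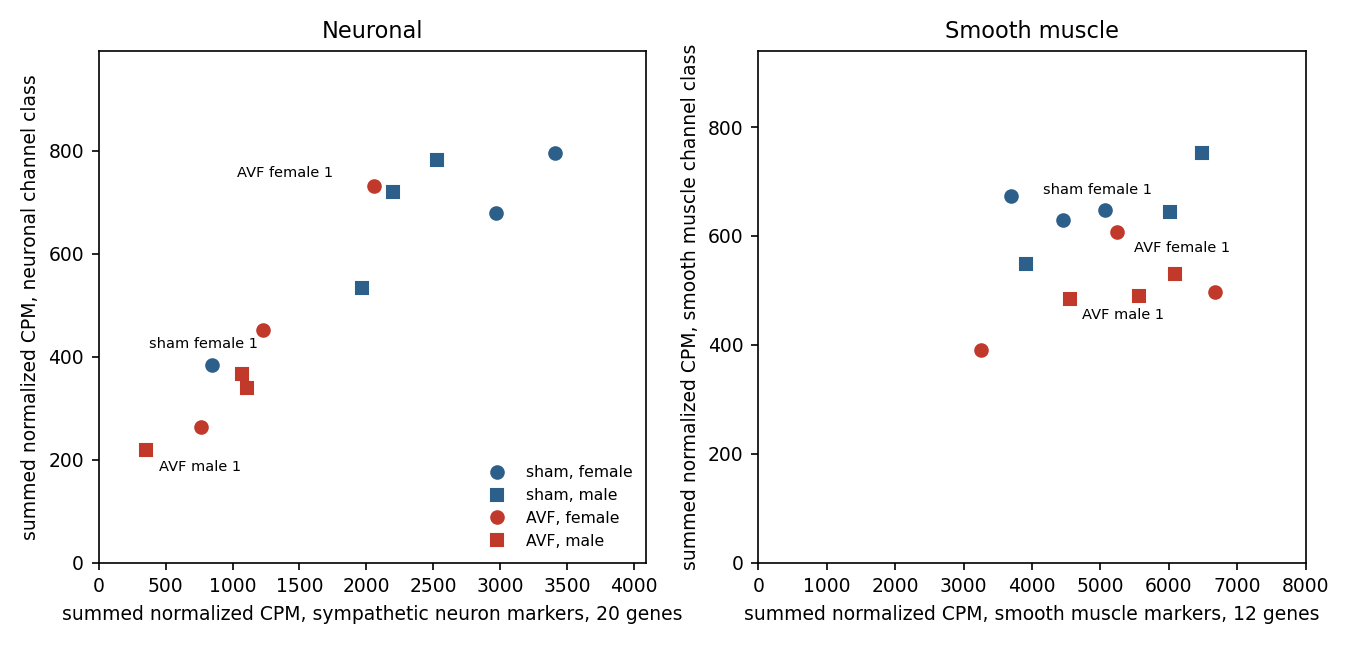
Summed normalized CPM per library of the neuronal channel class against that of 20 sympathetic neuron markers (left), and of the smooth muscle channel class against that of 12 smooth muscle markers (right), with sham in blue, AVF in red, squares for males and circles for females. On the left AVF male 1 is lowest on both axes and sham female 3 highest, and on the right 5 of the 6 AVF libraries lie below all sham libraries on the channel axis while the marker sums overlap.

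Gene by gene the same libraries marked the ends. Of the 39 tested neuronal members, 27 had their highest AVF level in AVF female 1 and 27 their lowest in AVF male 1. In sham, 28 had their lowest level in sham female 1 and 20 their highest in sham female 3. In the smooth muscle class no library held more than 6 of the 15 highest or lowest values of its group. The neuronal members also varied more between mice, with a median coefficient of variation of 39.3% in sham and 51.4% in AVF, against 27.1% and 26.4% in the smooth muscle class. Over all tested genes it was 18.7% and 20.1%. Without AVF female 1 the median log2 fold change of the neuronal class was -1.05, and without AVF male 2 and AVF female 2 it was -0.65. Over the alternative fits it lay between -1.05 and -0.61 and that of the smooth muscle class between -0.39 and -0.15, and the number of neuronal members that passed ranged from 0 to 11.

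Some striated muscle members were found almost wholly in 1 library with muscle RNA. Kcnj5, an atrial pore opened by G proteins, was at 15.9 normalized CPM in sham female 1 and at most 0.254 in any other library. Cacna1s, the calcium channel pore of skeletal muscle, was at 14.9 in sham female 3 and at most 0.234 elsewhere, and Scn4a, the skeletal sodium channel pore, at 5.47 there and at most 0.429 elsewhere. These 3 genes were singled out after their values were seen, and they were too low in the other libraries to be tested with the main filter. Kcnj12 and Kcnd3, which passed, did not peak there: among sham libraries Kcnj12 was highest in sham male 2 (4.58 normalized CPM) and lowest in sham female 1 (2.56), and Kcnd3 was highest in sham male 1 (22.3) and lowest in sham female 3 (9.92). Brown fat markers were lower in AVF as well, all 8 of them below 0 and 4 past the test (Cidea, Cpt1b, Cox8b and Otop1). Their sums in sham female 1, 2 and 3 were 1930, 1320 and 615 normalized CPM, where Kcnj12 was at 2.56, 3.60 and 4.31. In sham male 1, 2 and 3 the sums were 1020, 131 and 243, and Kcnj12 was at 3.17, 4.58 and 3.51. In AVF the sums were 53.7 to 358, and Kcnj12 was at 1.03 to 2.05. The part of brown fat and of striated muscle in these genes was not tested, and for Kcnj12 the log2 fold change without sham female 1 and sham female 3 was -1.26 (adjusted p = 0.0137 by edgeR's quasi-likelihood test).

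Beside the channels, 46 of 52 genes that regulate excitability and calcium (other cation channels, pumps, exchangers, calcium stores and anchoring proteins) were tested, with 4 higher and 3 lower in AVF. These are 8.7% and 6.52% of those tested, near the 8.63% and 5.13% of all genes. Piezo2, a mechanically gated channel, was at 26.7 to 45.1 normalized CPM in AVF (median 35.4) and 6.00 to 14.3 in sham (median 9.85), a log2 fold change of 1.80 (SE 0.20, adjusted p = 0.000272 by edgeR's quasi-likelihood test). Piezo1, the mechanically gated shear sensor of endothelium, was at 58.5 to 67.5 in AVF and 40.7 to 53.9 in sham (log2 fold change 0.42, SE 0.08, adjusted p = 0.00506). Trpc6, a cation channel of smooth muscle, was at 3.66 to 6.79 in AVF and 1.61 to 3.34 in sham (log2 fold change 1.06, SE 0.20, adjusted p = 0.00601). In all 3 the groups did not overlap. Atp2b1, the plasma membrane calcium pump, had a log2 fold change of 0.32 (SE 0.08).

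The lower ones included the calcium release channel Itpr1 and the calcium channel adaptor Stac. Itpr1 was at 83.2 to 131 normalized CPM in AVF and 136 to 169 in sham, with no overlap and a log2 fold change of -0.49 (SE 0.11, adjusted p = 0.0135 by edgeR's quasi-likelihood test). Stac had a log2 fold change of -0.79 (SE 0.21). The median log2 fold change of the 46 tested partners was -0.17, nearer to that of all genes than the median of the channel members.

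No member passed the test for a difference between the sexes. Of the 120 members with more than 12 counts, 0 differed between female and male AVF (0.0226% of 22163 genes did), 0 between female and male sham (0.0451%), and 0 in the interaction of operation and sex (0% of genes), by edgeR's quasi-likelihood test. DESeq2 also called 0 members, and 52, 160 and 3 of all genes. At an unadjusted p under 0.05 in edgeR there were 10, 11 and 9 members (8.33%, 9.17% and 7.5%), and 1005, 1680 and 1069 of all genes (4.53%, 7.58% and 4.82%). With 3 mice per sex and operation these comparisons were thin. Cacna1g had a log2 fold change of -1.25 (SE 0.40, adjusted p = 0.545 by edgeR's quasi-likelihood test) of female against male sham, and its 3 female sham libraries, at 0.974 to 1.5 normalized CPM, lay below the 3 male ones at 2.08 to 3.81. Kcna2 had the lowest unadjusted p of the interaction among the members (log2 difference 1.27, SE 0.39, adjusted p = 0.960 by edgeR's quasi-likelihood test). It was at 155, 60.8 and 105 normalized CPM in AVF female 1, 2 and 3 and at 54.6 to 71.1 in AVF males. The highest of these was AVF female 1, the library with 46% ribosomal RNA. Both examples, Cacna1g and Kcna2, were named after their values were seen.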

How the data were processed

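The 12 libraries of stranded poly(A) RNA, 1 per mouse, were grouped by operation and sex from the sample labels (6 AVF, 6 sham). Reads were trimmed by the authors (PRINSEQ, Trimmomatic 0.39) and mapped to GRCm39 (STAR 2.7.7a). The values they deposited are expected counts of each gene, estimated with RSEM 1.3.3 by strand and not normalized. Expected counts share reads between similar genes, which could affect near-identical copies. Here the counts were rounded and scaled by TMM factors, with edgeR 4.0.16 and limma 3.58.1 under R 4.3.3, and normalized CPM were computed for all genes. Names, coordinates and exon lengths came from GENCODE M39, on GRCm39 but of a later release than the authors used.

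AVF and sham were compared by edgeR's quasi-likelihood test over genes that exceeded 1 CPM in 2 or more samples, and sexes and the interaction over genes with more than 12 counts, with Benjamini-Hochberg adjustment over all genes tested. The method was tested on counts simulated with independent noise in each gene. No simulated library held an excess of RNA of other tissues, so its effect on the calls was not tested. The members, classes and lists were chosen with earlier results of these data known, and classes and marker lists rest on general knowledge of each gene. Named were the members that passed, up to 15 per direction, the smooth muscle class, the 8 highest per kb in sham, the 5 members with the largest change that did not pass, the partners that passed, and markers beside the results they go with. The results of some genes that these rules name are not reported here. Other members were named as examples of their role after their values were seen. Within groups, the chi-square over its degrees of freedom was 40.9 to 669 per pair of libraries, so no library was a copy of another. Deviations from the group means of mice with the same number and sex correlated by -0.144 to 0.175, so the numbers were not taken as pairs. The alternatives were other size factors, filters and tests (the exact test of edgeR, DESeq2 1.42.0, a robust fit), sex or number as terms, ribosomal RNA genes left out, and libraries left out.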

Additional observations from a re-analysis of the deposited data

Results flagged for a closer look

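In the 58 groups of 6 libraries searched, 1 had a library far from the other 5 by the ratio of its gap to the range, which chance gives in about 1 of 20 groups. Kcnab1 was at 84.1 normalized CPM in AVF female 1 and at 46.7 to 55.7 in the other AVF libraries, a gap of 0.759 of the range. It passed in 23 of 25 alternative fits, and without that library the test gave a log2 fold change of -0.81 (adjusted p = 0.00485) by edgeR's quasi-likelihood test.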

How the results depend on the processing

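The number of lower members depended on the test and on which mice were included. Of the 10 lower and 2 higher members, the exact test of edgeR gave 15 and 1, DESeq2 gave 18 and 3, and a change of at least 2-fold gave 6 and 1. Over all 15912 genes the same tests gave 817 lower and 1373 higher in the main comparison, 806 and 1202 by the exact test, 1432 and 1970 by DESeq2, and 223 and 536 with at least 2-fold asked for. Leaving out AVF male 2 and AVF female 2 gave 4 lower and 1 higher, leaving out AVF female 1 as well gave 7 and 1, and leaving out sham female 1 and sham female 3 gave 4 and 0, the latter fits being chosen after seeing the data. Over all genes these fits gave 312 lower and 911 higher, then 254 and 926, then 261 and 724. With 1 library left out in turn, the lower members ranged from 5 to 21 and the higher from 1 to 3. Over all genes the lower calls ranged from 393 (without AVF male 2) to 947 (without AVF female 1). The higher calls ranged from 916 (without sham female 2) to 1599 (without AVF female 1). The lower members came to 21 without AVF female 1, to 5 without AVF female 2, and to 6 without AVF female 3, sham male 2, sham female 2 or sham female 3, and the higher to 1 without AVF male 2, sham female 1 or sham female 3. Over all genes the lower calls were 947 without AVF female 1 and 708 without AVF female 2. They were 444, 762, 414 and 432 without AVF female 3, sham male 2, sham female 2 and sham female 3. The higher calls were 1017, 1083 and 1019 without AVF male 2, sham female 1 and sham female 3. The cause of these differences was not tested. Other size factors, filters, a robust fit, a term for sex, the 4 group means and leaving out ribosomal RNA genes gave 8 to 11 lower and 2 higher. Over all genes these fits gave 479 to 866 lower and 1147 to 1428 higher.

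A replicate block held mice of the same sex and number in AVF against sham and in the interaction. In the comparisons of the sexes it held mice of the same number. With the block 7 members were lower and 1 was higher in AVF, and over all genes 676 were lower and 1307 higher. In each comparison of the sexes and in the interaction 0 members passed with the block as without it. Mice of the same sex and number shared only these labels here, and the deviations of 5 of the 6 AVF mice correlated best with a sham mouse of another number or sex. No member passed in a comparison of the sexes under any alternative, in fits with 3 mice per sex and operation or fewer. No called gene changed direction in any alternative. Members under about 1 CPM had few counts behind them, and changes in them were not detectable at this depth unless large.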
